A study of Mus musculus with 6 samples.

Results

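Hepatocyte genes were measured in RNA from cultured liver sinusoidal endothelial cell (LSEC) preparations, where hepatocytes were not the cells sought. The 40 genes were chosen by symbol from the 60832 rows of the count table. They code for plasma carrier proteins, apolipoproteins, protease inhibitors, clotting and adhesion proteins, urinary proteins, enzymes of amino acid, urea, glucose and drug metabolism, and the nuclear receptor Hnf4a. Hepatocytes make most proteins of blood plasma and release them into the sinusoid, which LSECs line and in which Kupffer cells, the macrophages of the liver, reside. The same cells turn ammonia into urea, make glucose from amino acids, and oxidize drugs with cytochromes P450. Transcription factors such as HNF4, FOXA and C/EBP are known to drive these genes in hepatocytes.

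The cells came from mice whose livers bore CRCLM xenografts, that is, colorectal cancer liver metastases grown from the human cell line HCT116, and the study's methods name male BALB/c-Nu mice, an athymic strain, as xenograft hosts. Of the 6 libraries, 3 came from xenografts that were sensitive to bevacizumab and 3 from xenografts that were resistant to it. Bevacizumab is an antibody against human VEGF-A, and the resistant tumors had been brought to resistance by continued treatment with it. All 6 preparations carry the label of primary LSECs cultured for 24 h. The methods describe isolation with anti-CD146 beads and state a high purity of CD146-positive cells by flow cytometry. The labels number the xenografts of each group from 1 to 3 and do not say whether a library came from 1 mouse or from several, so the tests measure the spread between these preparations. Libraries are called here by group and number, for example resistant 2.

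Between 17599326 and 20726684 reads were counted on genes per library. At this depth 3 counts, the upper 95% limit for a count of 0, correspond to between 0.136 and 0.193 CPM, the count scaled to a common library size after TMM normalization. These limits cover counting error only, since reads were counted without molecular identifiers. The labelled cell type was checked against marker genes, of which Mrc1 is in both the macrophage and the LSEC list. The CPM of 18 macrophage and Kupffer cell markers summed to between 24222 and 42869 per library, that of 13 LSEC markers to between 1088 and 2422, and that of 13 markers of endothelial cells in general to between 77.7 and 522. Sensitive 2 stood apart: 884 of the 15342 tested genes with a count in each of the other libraries had a count of 0 there (5.76%), against at most 0.207% in any other library, and the genes of the mitochondrial genome summed to 1501 CPM in it against 7640 to 11379 CPM elsewhere.

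The hepatocyte genes were detected in every library, at a low level. Their summed CPM was 180, 274 and 84.3 in sensitive 1, 2 and 3 and 161, 535 and 195 in resistant 1, 2 and 3. Resistant 2 was the highest and sensitive 3 the lowest, 6.34-fold apart, and the groups overlapped. Per length, the median FPKM (the count scaled to transcript length and to the library total) of the 40 genes was between 0.357 and 3.30 per library. The median FPKM of the macrophage and Kupffer cell markers was between 168 and 695. Of the 40 genes, 27 had a count in every library and 1, Otc, had none in any. The number at 0 was 3, 12 and 6 in sensitive 1, 2 and 3 and 1, 2 and 2 in resistant 1, 2 and 3. In a bulk library, fewer cells of a type and less RNA per cell cannot be told apart.

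**Figure D1:**
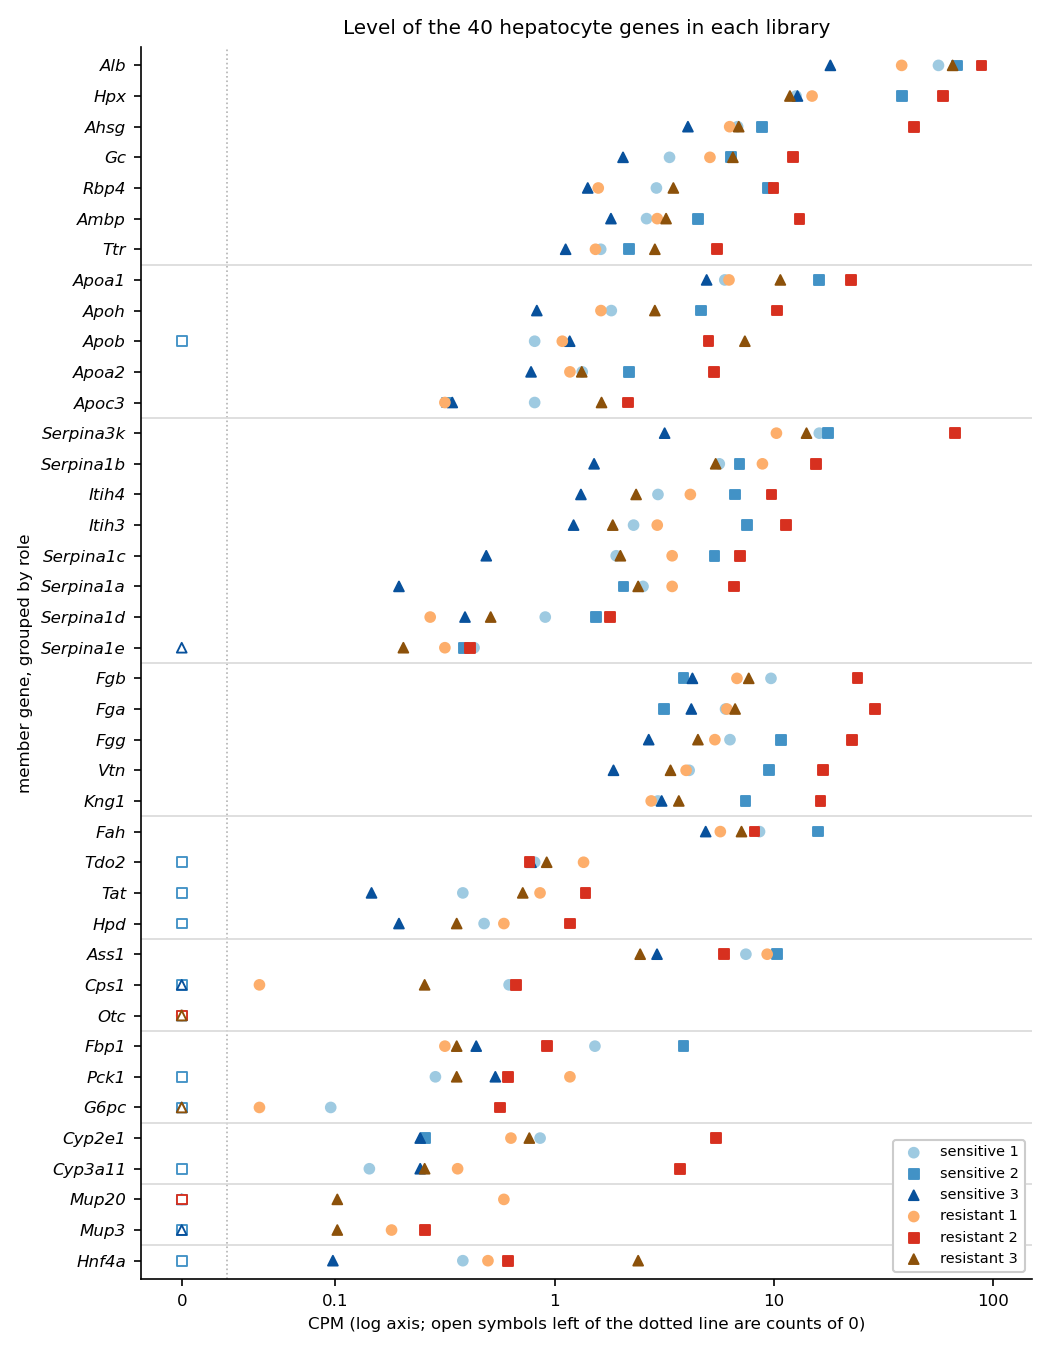
CPM (log axis) of the 40 hepatocyte genes in the 6 libraries, 1 symbol per library, with genes grouped by role and ordered by mean level within a role; open symbols at the left are counts of 0 and overlap where several libraries are at 0. Resistant 2 (red squares) is the highest library for 30 genes, and sensitive 2 (open blue squares) is at 0 for 12.

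Sequences upstream of these genes are shown first, because hepatocyte genes are known to share motifs of liver factors there. RefSeq (GRCm38.p6) gave promoter windows of 300 bases, from 250 before to 50 after the start, for 34 of the 40 genes, 37 windows in all. TGTTTAC, a form of the FOXA motif searched on both strands, was in 4 of these windows (10.8%) and in 3.65% of all 32851 promoter windows of the table. These 4 are printed over 80 bases, 5′ to 3′ on the strand of the gene, with the match or its reverse complement in capitals.
Apoa2: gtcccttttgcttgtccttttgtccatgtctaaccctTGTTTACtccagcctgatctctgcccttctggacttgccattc
Apoh: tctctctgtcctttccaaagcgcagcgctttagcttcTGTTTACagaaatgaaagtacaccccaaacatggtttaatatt
Rbp4: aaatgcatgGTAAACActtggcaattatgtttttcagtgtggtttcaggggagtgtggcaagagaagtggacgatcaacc
Cyp3a11: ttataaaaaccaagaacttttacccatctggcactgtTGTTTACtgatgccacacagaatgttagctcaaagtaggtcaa
The stretches lie at chr1:171224940-171225019 on the plus strand (Apoa2), chr11:108395189-108395268 on the plus strand (Apoh), chr19:38125492-38125571 on the minus strand (Rbp4) and chr5:145880010-145880089 on the minus strand (Cyp3a11). Counted from the annotated start, the match began at -77 in Apoa2, -71 in Apoh, -241 in Rbp4 and -198 in Cyp3a11. Rbp4 carried it in reverse. TATAAA, also searched on both strands, was in 27% of the member windows against 13.6% of all windows. CAAAGTCCA (HNF4) was in 1 member window, that of Cyp3a11 (2.7% against 0.475%). TTGCGCAA (C/EBP) was in none, against 0.183% of all windows. A match is a description of the letters and was not tested as a binding site. Ttr, Mup20, Apoc3, Cps1, Kng1 and Serpina3k had no window in the table.

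The 5 Serpina1 genes, which code for alpha-1-antitrypsin paralogs, have promoters that are near copies of one another. A stretch of each window is shown with the bases that differ from Serpina1b in capitals.
Serpina1a: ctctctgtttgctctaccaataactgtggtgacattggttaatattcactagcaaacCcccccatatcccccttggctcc
Serpina1b: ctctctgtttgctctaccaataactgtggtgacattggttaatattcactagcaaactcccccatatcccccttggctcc
Serpina1c: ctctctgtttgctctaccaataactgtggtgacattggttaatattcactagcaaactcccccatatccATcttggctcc
Serpina1d: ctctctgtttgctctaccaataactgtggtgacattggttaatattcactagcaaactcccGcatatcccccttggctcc
Serpina1e: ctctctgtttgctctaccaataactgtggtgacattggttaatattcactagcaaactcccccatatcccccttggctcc
All lie on the minus strand of chromosome 12, at chr12:103863598-103863677 for Serpina1a, chr12:103738173-103738252 for Serpina1b, chr12:103904935-103905014 for Serpina1c, chr12:103773607-103773686 for Serpina1d and chr12:103956933-103957012 for Serpina1e. Over these 80 bases, Serpina1e was identical to Serpina1b, Serpina1a and Serpina1d differed from it at 1 base and Serpina1c at 2.

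The pattern that most members shared was a maximum in 1 library. Of the 40 genes, 30 had their highest CPM in resistant 2. Among the 33 that passed the filter on low counts there were 26, or 78.8%, whereas 12.9% of all 15474 tested genes had their highest CPM there. The same share, 12.9%, was found for the 11444 tested genes whose mean CPM lay in the members' range of 0.466 to 55.7. Sensitive 2 was the library in which most tested genes peaked (33.1%), but only 3 tested members did, Fah, Ass1 and Fbp1. The lowest library was sensitive 3 for 19 of the 33 tested members (57.6%), against 16.6% of all tested genes. Where resistant 2 was highest, its CPM was 1.06-fold to 10.4-fold that of the next library, with a median of 1.90-fold. A list of 42 other hepatocyte genes, of which 26 were tested, had 13 of these highest in resistant 2 and 12 in sensitive 2.

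**Figure D2:**
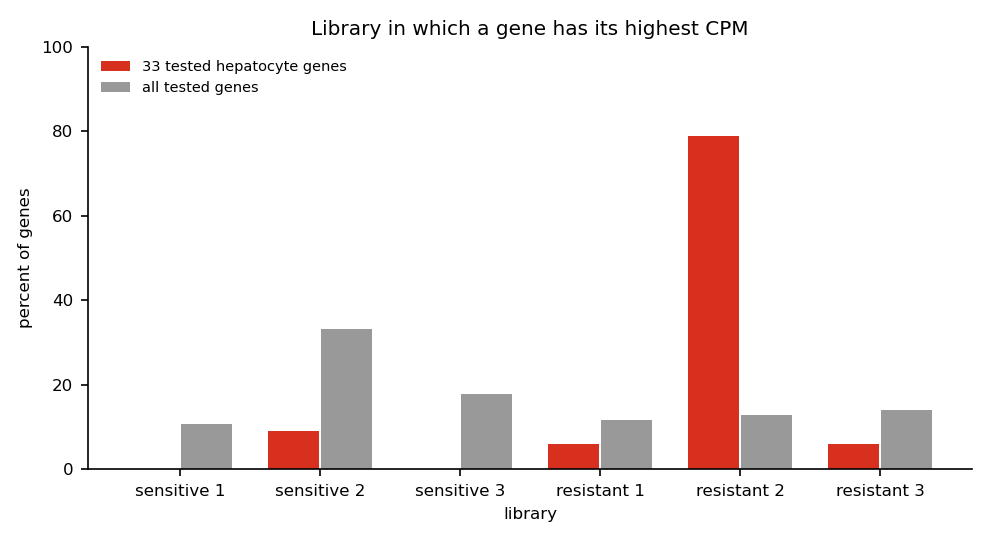
Percent of genes (from 0 to 100) whose highest CPM lies in each of the 6 libraries, for the 33 tested hepatocyte genes (red) and for all tested genes (gray). For resistant 2 the percentages are 78.8 and 12.9.

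The plasma carrier proteins held the largest part of the signal. Alb, serum albumin, had 1177, 1056 and 370 counts in sensitive 1, 2 and 3 and 845, 1720 and 1274 counts in resistant 1, 2 and 3. Its CPM was 56.2, 68.1 and 18.1 in the sensitive and 38.2, 88.2 and 65.2 in the resistant libraries. Only sensitive 3 was far below the others, and the groups overlapped. The means were 47.5 ± 26.1 and 63.9 ± 25.0 CPM (SD, n = 3 each), and the log2 fold change was 0.43 ± 0.52 (SE). Alb lies on chromosome 5 at 90460897 to 90476602 (GRCm38), and its share of the members' summed FPKM was between 14.0% in resistant 2 and 29.7% in resistant 3.

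Hpx, hemopexin, which binds free heme, was the next most abundant member per length. Its CPM was 12.6, 38.4 and 12.8 in the sensitive and 14.9, 58.9 and 11.8 in the resistant libraries. Here replicate 2 of each group was high and the other 4 libraries lay close together. Ahsg, fetuin-A, an inhibitor of calcification, was at 6.83, 8.84 and 4.06 CPM in the sensitive and at 6.28, 43.4 and 6.91 CPM in the resistant libraries. Its CPM in resistant 2 was 4.92-fold that of the next library, whereas the figure for Alb was 1.30. Gc, the vitamin D-binding protein, was at 3.34, 6.39 and 2.05 CPM in the sensitive and at 5.11, 12.3 and 6.50 CPM in the resistant libraries, with 2 of the 3 resistant values above every sensitive one. Ambp, the precursor of alpha-1-microglobulin, ranged from 1.81 to 13.1 CPM, Rbp4, the plasma carrier of retinol, from 1.42 to 9.95 CPM, and Ttr, transthyretin, which carries thyroid hormone and retinol-binding protein, from 1.12 to 5.49 CPM. All 3 were lowest in sensitive 3 and highest in resistant 2.

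Of the apolipoproteins, Apoa1, the main protein of high-density lipoprotein, was at 5.97, 16.1 and 4.94 CPM in the sensitive and at 6.24, 22.4 and 10.7 CPM in the resistant libraries. Apoh, beta-2-glycoprotein I, was at 1.81, 4.64 and 0.831 CPM in the sensitive and at 1.63, 10.4 and 2.87 CPM in the resistant libraries. Both followed the sum of the members, with replicate 2 of each group high. Apoa2, another protein of high-density lipoprotein, ranged from 0.782 to 5.33 CPM in the same manner. Apob, the scaffold of low-density and very-low-density lipoprotein, had another pattern. It had 17, 0 and 24 counts in sensitive 1, 2 and 3 and 24, 98 and 144 counts in resistant 1, 2 and 3, which makes resistant 3 its highest library at 7.37 CPM. Its log2 fold change was 2.72 ± 1.15 (SE). Apoc3, an inhibitor of lipoprotein lipase that lies on chromosome 9 at 46232933 to 46235636, beside Apoa1 at 46228580 to 46230466, was at 2.15 CPM in resistant 2 and 1.64 CPM in resistant 3 and at most 0.812 CPM in the other libraries.

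Of the 4 secreted roles the protease inhibitors varied most between libraries, their summed CPM in resistant 2 being 14.4-fold that in sensitive 3. Serpina3k, a relative of human alpha-1-antichymotrypsin, was at 16.1, 17.6 and 3.18 CPM in the sensitive and at 10.3, 67.0 and 14.1 CPM in the resistant libraries. Resistant 2 was 3.80-fold above the next library, sensitive 2. Serpina1b, which had the highest FPKM of the alpha-1-antitrypsin genes in 5 of the 6 libraries, was at 5.64, 6.97 and 1.51 CPM in the sensitive and at 8.86, 15.5 and 5.43 CPM in the resistant libraries, so that sensitive 3 alone lay far below the rest. Serpina1a had 4 counts in sensitive 3 and between 32 and 128 in the others, and Serpina1c had 10 and between 39 and 137. Serpina1d had between 6 and 35 counts and Serpina1e between 0 and 9. The exons of these genes are partly identical. Of their 100-base windows, 69.3% of Serpina1c, 42.8% of Serpina1a, 29.3% of Serpina1d, 14.8% of Serpina1b and 14.4% of Serpina1e also occur in another gene, so how reads were divided among the 5 is uncertain. The annotated span of Serpina1b (chromosome 12, 103728156 to 103830373) also covers that of Serpina1d (103763594 to 103773592). Itih3 and Itih4, heavy chains of the inter-alpha-trypsin inhibitor family, ranged from 1.22 to 11.3 and from 1.32 to 9.75 CPM. Their ratio of FPKM stayed between 0.717 and 1.18 in the 6 libraries.

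The 3 fibrinogen chains, which together form the clotting protein, lie side by side on chromosome 3, with Fgg at 83007724 to 83015049, Fga at 83026076 to 83033627 and Fgb at 83040141 to 83049863. Fga was at 6.02, 3.16 and 4.20 CPM in the sensitive and at 6.10, 28.8 and 6.65 CPM in the resistant libraries. Fgb was at 9.70, 3.87 and 4.25 CPM in the sensitive and at 6.78, 24.0 and 7.68 CPM in the resistant libraries. Fgg was at 6.30, 10.8 and 2.69 CPM in the sensitive and at 5.38, 22.6 and 4.50 CPM in the resistant libraries. All 3 chains were highest in resistant 2, but in sensitive 2 Fgg was raised over the other sensitive libraries and Fga and Fgb were not. The FPKM ratio of Fga to Fgg was 0.204 in sensitive 2 and between 0.664 and 1.09 in the other libraries, and that of Fgb to Fgg 0.197 against 0.583 to 0.936. The 3 resistant values of Fga were all above the 3 sensitive ones, the lowest of them, 6.10 CPM, by little. Kng1, kininogen, ranged from 2.76 to 16.3 CPM and Vtn, vitronectin, an adhesion protein of plasma and matrix, from 1.86 to 16.7 CPM, and both were highest in resistant 2 with sensitive 2 next.

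Fah, Ass1 and Fbp1, the enzymes of amino acid, urea and glucose metabolism with the most counts, had their maximum in sensitive 2. Fah, the last enzyme of tyrosine breakdown, was at 8.60, 15.9 and 4.89 CPM in the sensitive and at 5.70, 8.16 and 7.11 CPM in the resistant libraries. Ass1, the urea cycle enzyme argininosuccinate synthase, which endothelial cells and macrophages also use to recycle citrulline, was at 7.45, 10.3 and 2.93 CPM in the sensitive and at 9.31, 5.90 and 2.46 CPM in the resistant libraries. In both, resistant 2 lay within the range of the other libraries. Of the 100-base windows of Ass1, 26.9% also occur in another gene, so its count is uncertain to that extent. Fbp1, fructose-1,6-bisphosphatase, a gluconeogenic enzyme, was at 1.53, 3.87 and 0.440 CPM in the sensitive and at 0.317, 0.923 and 0.358 CPM in the resistant libraries. In each of these 3 genes the mean of the resistant libraries was below that of the sensitive ones, with overlapping groups.

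The other enzymes of amino acid, urea and glucose metabolism had few counts. Tat, tyrosine aminotransferase, had 8, 0 and 3 counts in the sensitive and 19, 27 and 14 counts in the resistant libraries, without overlap. Hpd, the next enzyme of tyrosine breakdown, had 10, 0 and 4 counts in the sensitive and 13, 23 and 7 counts in the resistant libraries, which overlapped. Tdo2, which opens the tryptophan ring, had 17, 0 and 16 counts in the sensitive and 30, 15 and 18 counts in the resistant libraries. Pck1, phosphoenolpyruvate carboxykinase, had 6, 0 and 11 counts against 26, 12 and 7. Neither Tdo2 nor Pck1 was highest in resistant 2. Cps1, the enzyme that opens the urea cycle and one of the most abundant proteins of liver mitochondria, had 13, 0 and 0 counts in the sensitive and 1, 13 and 5 counts in the resistant libraries. G6pc, the catalytic subunit of glucose-6-phosphatase, had 2, 0 and 0 against 1, 11 and 0 counts. Otc, ornithine transcarbamylase, had 0 counts in all 6 libraries, with an upper 95% limit of 0.136 to 0.193 CPM in each.

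Of the members, the 2 P450 genes stood out most in resistant 2 by the ratio to the next library. P450 genes outside the members were not all alike, and Cyp8b1 had 7 counts in resistant 2 and 14 in sensitive 1. Cyp2e1, the ethanol-inducible P450 of pericentral hepatocytes, had 18, 4 and 5 counts in the sensitive and 14, 106 and 15 counts in the resistant libraries. Its CPM in resistant 2, 5.44, was 6.32-fold that of the next library. Cyp3a11, the main mouse relative of human CYP3A4, had 3, 0 and 5 against 8, 73 and 5 counts, and resistant 2 was 10.4-fold above the next library. Both were at a low level everywhere else. The major urinary proteins, which carry pheromones, were counted in the resistant group alone. Neither was tested, and the share of untested genes at 0 in every sensitive library was not computed, so no difference between the groups is read from them. Mup3 had 4, 5 and 2 counts there and Mup20 had 13, 0 and 2, against 0 in each sensitive library, and no fold is given, since the resistant means, 0.180 CPM for Mup3 and 0.230 CPM for Mup20, lie near the limit of 3 counts. Of the 100-base windows of Mup20, 38.8% also occur in another gene. Hnf4a, the nuclear receptor that defines hepatocyte identity, had 8, 0 and 2 counts in the sensitive and 11, 12 and 47 counts in the resistant libraries, so that resistant 3 was its highest library.

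**Figure D3:**
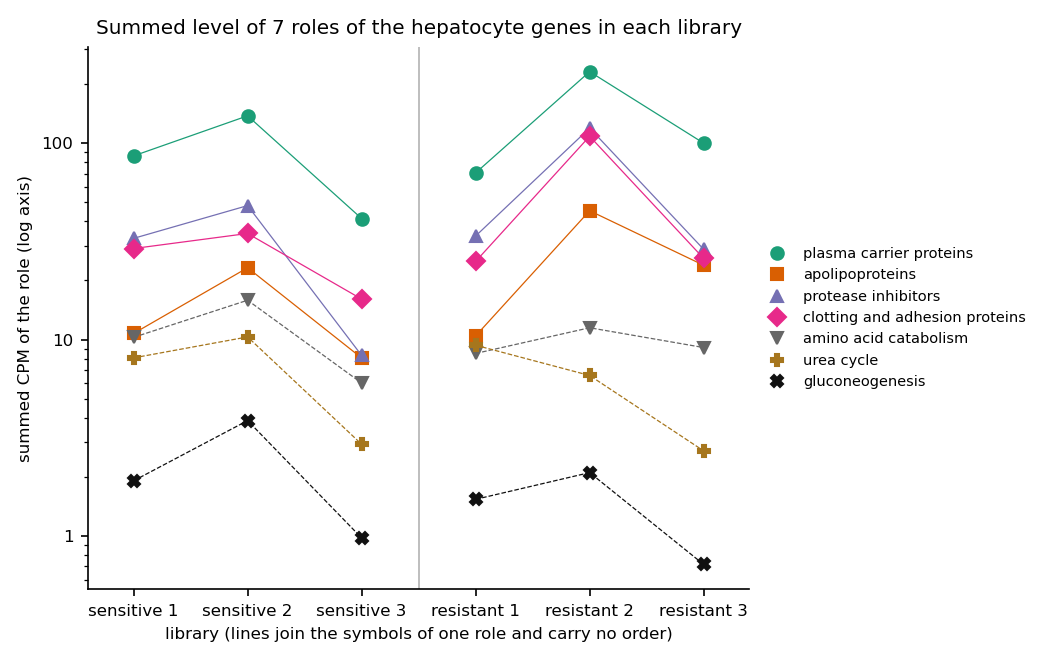
Summed CPM (log axis) of 7 roles in the 6 libraries; each symbol is 1 role in 1 library. The 4 secreted roles (solid lines) peak in resistant 2, with 231 CPM for the plasma carrier proteins and 119 CPM for the protease inhibitors, whereas the amino acid, urea and gluconeogenic sums (dashed lines) peak in sensitive 2, at 15.9, 10.3 and 3.87 CPM, there carried by Fah, Ass1 and Fbp1 alone.

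Summed by role, the secreted proteins peaked in resistant 2. The plasma carrier proteins were at 86.2, 138 and 41.3 CPM in the sensitive and at 70.6, 231 and 100 CPM in the resistant libraries. The apolipoproteins were at 10.7, 23.2 and 8.06 against 10.4, 45.3 and 23.9 CPM, the protease inhibitors at 32.8, 48.1 and 8.31 against 33.7, 119 and 28.8 CPM, and the clotting and adhesion proteins at 29.1, 34.7 and 16.1 against 25.0, 108 and 25.9 CPM. For each of these 4 roles resistant 2 was above every other library. The enzymes of amino acid catabolism summed to 10.3, 15.9 and 6.01 against 8.50, 11.5 and 9.11 CPM, and the urea cycle genes to 8.07, 10.3 and 2.93 against 9.36, 6.57 and 2.71 CPM. The gluconeogenic enzymes summed to 1.91, 3.87 and 0.977 against 1.54, 2.10 and 0.717 CPM. For these 3 sums sensitive 2 was the highest library, but each was carried there by 1 gene, Fah, Ass1 or Fbp1. Tat, Tdo2, Hpd, Cps1, Pck1 and G6pc were at 0 in sensitive 2, and Tat, Hpd, Cps1 and G6pc were highest in resistant 2.

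As a description over the 6 libraries, the log2 CPM of each member was correlated with the summed level of the other members, and these points share their libraries and depth. Pearson's r was at least 0.8 for 20 of the 39 genes with a count, between 0.5 and 0.8 for 10, and under 0.5 for 9. The highest values belonged to Apoh (0.98), Serpina3k (0.98), Fgg (0.97), Apoa2 (0.96) and Vtn (0.96). The lowest were those of Tdo2 (-0.28), Mup20 (-0.20), Pck1 (-0.18), Hnf4a (0.16) and Apob (0.23), all of which have a count of 0 in at least 1 library. The levels of the 40 genes within a library were alike in all pairs of libraries, with Pearson's r of log2 FPKM between 0.88 and 0.95 across genes, which are not independent. Their order was alike too, with Spearman's rank correlation between 0.86 and 0.94. Ratios between abundant members were less even. The FPKM ratio of Alb to Serpina3k was 1.16 in resistant 2 and between 3.07 and 5.00 in the other libraries, and that of Alb to Ahsg was 1.90 in resistant 2 and between 4.18 and 8.85 in the others.

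Between the groups, no hepatocyte gene passed the test. Of the 33 tested members, 0 had an adjusted p under 0.05 with edgeR's quasi-likelihood test, and the adjusted p-values lay between 0.940 and 0.981. Over all 15474 tested genes 0 (0%) passed, and DESeq2's Wald test gave 24 genes, 0 of them members. At an unadjusted p under 0.05 with edgeR there were 4 members, Apob, Fga, Tat and Hnf4a, the smallest p being 0.0443 (Fga), and 476 of all tested genes (3.08%). These 4 were all higher in the resistant group, whereas of the 476 genes 83 were higher and 393 lower. The member count was 0 without resistant 2, 1 with library totals or limma-voom, 7 with DESeq2 and 11 with no filter on low counts. The 3 resistant libraries were all above the 3 sensitive ones for 3 of the 33 tested members, Fga, Tat and Hnf4a, against 4.69% of all tested genes. Mup3, at 0 in each sensitive library, also had this order but was not tested and is not in this count. They were all below for 0 members, against 4.33% of all tested genes. Tat and Hnf4a, with at most 8 counts in any sensitive library, passed the filter on low counts through the resistant libraries alone. Their lack of overlap and their unadjusted p are therefore not independent of that filter. The log2 fold change was above 0 for 29 of the 33 members and below 0 for 4, Serpina1d, Fah, Ass1 and Fbp1, whereas 50.8% of all tested genes were above 0. The median was 1.00 for the members and 0.01 for all tested genes, with values from -1.86 ± 0.90 for Fbp1 to 2.77 ± 1.17 for Hnf4a (SE). The standard errors of the 33, between 0.46 and 1.17, were of the size of the differences.

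**Figure D4:**
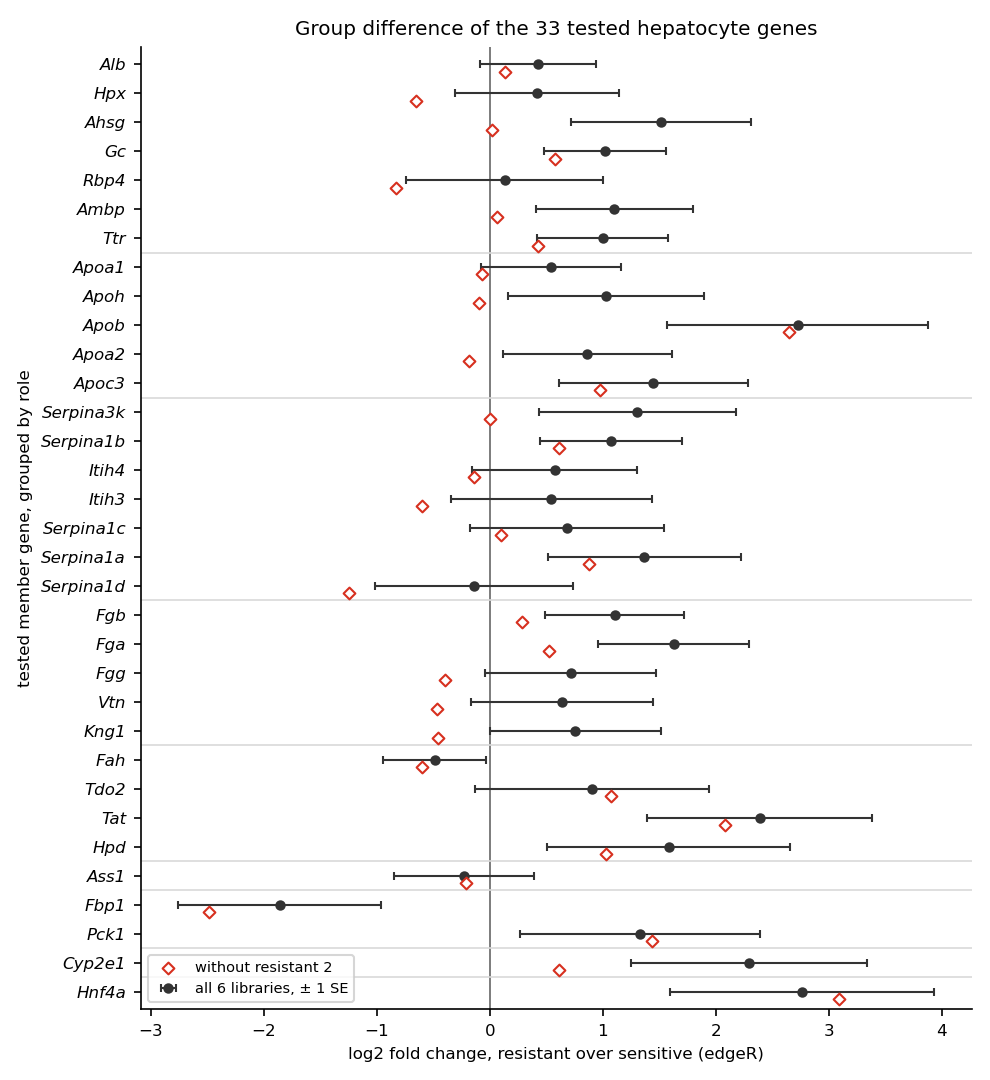
Log2 fold change (resistant over sensitive) of the 33 tested hepatocyte genes, grouped by role, with 1 SE as the bar (black circles, all 6 libraries) and the value without resistant 2 (open red diamonds). Above 0 lie 29 genes with all libraries and 18 without resistant 2.

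The balance of directions moved with resistant 2 and with sensitive 2. Without resistant 2, 18 of 33 members had a log2 fold change above 0 and the median was 0.06. The ratio of the mean summed CPM of the 40 genes, resistant over sensitive, was 1.65 with all libraries and 0.992 without resistant 2. Leaving out sensitive 2 had the opposite result, with 33 of 34 tested members above 0, a median of 1.30 and a ratio of 2.24. Without sensitive 3, the library with the lowest levels, there were 28 of 34, with a median of 0.65 and a ratio of 1.31. With resistant 2 and sensitive 2 both left out, an alternative chosen after the values were seen, 30 of 32 members were above 0, the median was 0.47 and the ratio 1.35. No member passed an adjusted p of 0.05 in any of these fits with edgeR.

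Some members had a log2 fold change above 1 without resistant 2. Hnf4a had a log2 fold change of 3.09 without it, Apob 2.65, Tat 2.08, Pck1 1.44 and Tdo2 1.07. Hpd was also above 1, at 1.026 or more in each fit that left out 1 library. Among the abundant secreted proteins the values without resistant 2 were 0.14 for Alb, 0.58 for Gc, 0.62 for Serpina1b, 0.52 for Fga, 0.02 for Ahsg and -0.65 for Hpx. Hnf4a, Apob, Tat, Pck1 and Tdo2 each have a count of 0 in sensitive 2. Without that library the log2 fold change was 2.24 for Hnf4a, 2.16 for Apob, 1.86 for Tat, 0.79 for Pck1 and 0.34 for Tdo2, and with both libraries left out it was 2.55, 2.08, 1.54, 0.89 and 0.51 in the same order. Of the 34 members with a count in each of the other 5 libraries, 7 were at 0 in sensitive 2 (20.6%), namely Apob, Tat, Tdo2, Hpd, Hnf4a, Pck1 and Cyp3a11. The share over all tested genes was 5.76%. The mean count of these 7 in the other libraries was between 11.4 and 61.4, and within that range 7 of 14 members (50%) were at 0 in sensitive 2, against 21.3% of all tested genes. Since these 7 genes set the range, all of them lie in it by construction. Cyp3a11 was also not among the tested genes, so neither pair of shares compares like with like. In the same library 28 members had a count, and Alb was there at its second-highest level.

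Other genes of the hepatocyte program did not all move with the members. Of the 26 tested genes of the other hepatocyte list, 14 had a log2 fold change above 0 and 12 below, with a median of 0.17 and 0 with an adjusted p under 0.05 in edgeR's test. The 3 most abundant were Hp, haptoglobin, which neutrophils and monocytes also make, Arg1, arginase, which macrophages also make, and Trf, transferrin. Hp was at 510, 2097 and 109 CPM in the sensitive and at 178, 197 and 63.1 CPM in the resistant libraries, so it peaked in sensitive 2. Arg1 was at 107, 63.4 and 296 against 44.6, 621 and 374 CPM, and Trf at 140, 260 and 291 against 252, 300 and 260 CPM. In this list Plg, plasminogen, and Azgp1, a zinc-binding plasma protein, had all resistant values above the sensitive ones, and Apoc1, an apolipoprotein, and Hgd, an enzyme of tyrosine breakdown, all below. That is 2 of the 26 tested genes above and 2 below, beside 4.69% and 4.33% of all tested genes. These 4 were picked out after their values were seen.

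The hepatocyte transcription factors were sparse apart from Cebpa. Cebpa, which myeloid cells also express, was at 265, 250 and 319 CPM in the sensitive and at 339, 435 and 367 CPM in the resistant libraries, with no overlap and a log2 fold change of 0.45 ± 0.21 (SE). Over the 6 libraries together, Nr5a2 had 133 counts, Hnf4a 80, Foxa1 65, Nr1h4 65, Foxa2 48, Prox1 44, Nr1i2 34, Foxa3 19, Nr1i3 5 and Onecut1 2. Of the 5 that were tested 3 had a log2 fold change above 0 and 0 had an adjusted p under 0.05 in edgeR's test. Of the zonation genes outside the members, the 5 periportal ones, led by Arg1 and Hal, summed to between 114 and 890 CPM per library. The 8 pericentral ones, led by Glul, Oat and Lhpp, summed to between 563 and 889 CPM. Glul alone was at 434 to 750 CPM and Oat at 83.6 to 128 CPM, while Gulo and Slc1a2 reached at most 1.34 and 2.64 CPM. These sums thus rest on few genes, and the cells that made this RNA were not determined. Of the defining pericentral enzymes, Cyp1a2 had 2 counts in all and Cyp2c29 17.

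Some markers of other cells also stood apart in resistant 2. The 11 markers of stellate cells and fibroblasts, led by Col1a1, summed to 371 CPM in it and to between 89.5 and 170 CPM in the others. Of them 6 were highest there and 1, Rgs5, was lowest there, at 0.308 CPM. Col1a1, Acta2 and Col1a2 held 135, 93.0 and 82.2 CPM of the sum in resistant 2. The 7 cholangiocyte markers summed to 838 CPM in it and to between 45.3 and 401 CPM in the others, but Spp1, also a gene of macrophages, held 815 CPM of this. The other 6 summed to 22.9 CPM in resistant 2, within their range of 2.64 to 68.4 CPM over the remaining libraries. The 13 markers of endothelial cells in general were lowest there, at 77.7 against 310 to 522 CPM, led by Cdh5. The 13 LSEC markers were not, at 1256 CPM in resistant 2 and between 1088 and 2422 CPM in the others. The 14 markers of exocrine pancreas, led by Ctrb1, summed to 0.410 CPM in resistant 2, where 13 were at 0, and to between 0.684 and 116 CPM elsewhere. The 10 neutrophil markers, led by S100a9, ranged from 331 to 7837 CPM with 1582 CPM in resistant 2, the 6 erythroid markers from 0.256 to 12.5 CPM, the 6 markers of T and NK cells from 0.103 to 12.3 CPM and the 6 of B and plasma cells from 0.923 to 11.0 CPM, the last 3 lists being lowest in resistant 2. The most abundant macrophage marker, Marco, ranged from 4336 to 13530 CPM. The part of these cells in the levels of the hepatocyte genes was not tested.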

How the data were processed

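RNA-seq counts of 6 mouse libraries were analysed, grouped by the sample titles. Per the labels' processing notes, the authors aligned reads with HISAT2 2.0.5 and counted them with featureCounts 1.5.0-p3, and deposited whole-number counts that had not been normalized. FPKM values were deposited too, which are counts scaled to gene length and library total. The notes name the build mm9, but the gene lengths implied by counts and FPKM equal the exon lengths of GENCODE M21 (GRCm38) for 39 of 39 members with a count, and coordinates are given in GRCm38. The labels name ribosomal RNA depletion and the methods also poly(A) selection. The authors' table of their own comparison (group means, fold changes, p-values) was not used.

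Genes were kept by filterByExpr (15474 of 60832), normalized by TMM and tested with edgeR 4.0.16 in R 4.3.3 (quasi-likelihood, robust, two-sided, no covariate), with Benjamini-Hochberg adjustment over all tested genes and a threshold of 0.05. The test was checked on simulated counts. Correlations used log2(CPM + 0.5) and log2(FPKM + 0.1). Promoters are from RefSeq (GRCm38.p6). Identical 100-base windows were counted over all GENCODE M21 transcripts. The members and all gene lists were chosen with earlier results of these data known, so they are described by counts and medians, with no p-value over a list. All 40 members are named, and of the other lists the 3 most abundant genes, the transcription factors and the leading marker of each cell type; 1 listed factor and the motif search for it are not reported here. Alternatives were RLE size factors, library totals, DESeq2 1.42.0, limma-voom (limma 3.58.1), other filters, no robust moderation, a replicate block, log2(FPKM + 1), leaving out Alb, and leaving out libraries. Figures were drawn with matplotlib 3.10.9.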

Additional observations from a re-analysis of the deposited data

How the results depend on the processing

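Under every alternative run, 0 members had an adjusted p under 0.05. With other size factors, library totals, DESeq2, limma-voom, no robust moderation, the replicate block or log2(FPKM + 1), 29 of 33 members had a log2 fold change above 0, and the median lay between 0.46 with log2(FPKM + 1) and 1.05. The number of members with an unadjusted p under 0.05, 4 with edgeR, was between 0 without resistant 2 and 11 with no filter. No filter gave 35 of 39 and a minimum of 10 counts in every library 20 of 22. Over all genes, no filter gave 2 genes with an adjusted p under 0.05 and 2036 with an unadjusted p under 0.05, and DESeq2 gave 24 and 732. Leaving out each library in turn gave 0 genes with an adjusted p under 0.05 and between 167 and 1056 with an unadjusted one, with 1056 without sensitive 3, 245 without resistant 2 and 167 without resistant 3, and moved the members above 0 from 18 to 33, their median from 0.062 to 1.30 and the ratio of summed CPM from 0.992 to 2.24. Without Alb that ratio was 1.76, and without Ass1, Fbp1, Fah, Rbp4, Hpd, Vtn and Itih4, which other cells also express, 1.79. The direction of 14 of 33 members turned in at least 1 of these fits, where the log2 fold change spanned, for Apoa1 from -0.069 to 1.25, Apoa2 from -0.18 to 1.28, Apoh from -0.092 to 1.89, Ass1 from -0.71 to 0.17, Fah from -0.80 to 0.041, Fgg from -0.40 to 1.25, Hpx from -0.65 to 1.16, Itih3 from -0.60 to 1.60, Itih4 from -0.14 to 1.32, Kng1 from -0.46 to 1.31, Rbp4 from -0.83 to 1.19, Serpina1d from -1.25 to 0.38, Serpina3k from -0.00081 to 1.73 and Vtn from -0.47 to 1.41. Ass1 was at 0.17 with sensitive 2 and resistant 2 both left out. The cause of these changes was not tested. The other 19 members kept their direction in all alternatives. Over all tested genes, same-numbered libraries did not deviate together, with correlations of -0.001, 0.03 and 0.19, so the numbers were not taken to pair them. The summed CPM of the members was, however, highest in replicate 2 of each group. With the replicate block 29 members were above 0 and 4 below. Few counts limit Tat, Hpd, Pck1, Hnf4a and the 7 members that were not tested, and with 3 libraries a group an exact permutation test could not go below 0.1.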
